A study of Mus musculus with 516 samples.

Results

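Potassium channel subunits were taken from a table of read counts as every row whose symbol begins with Kcn, followed by the letters and number of a subunit, plus Dpp10, an accessory subunit of voltage-gated potassium channels that was added by name. The rule gave 49 genes of 11251 in the table. Every gene of the table was read in at least 60 cells, so channel genes read in fewer cells are absent. The bearing of this on the counts below was not tested. By role, 21 are pore-forming or silent subunits of voltage-gated channels, 7 are accessory subunits of those channels, 10 belong to channels opened by calcium or sodium or related to them, 4 are inward rectifiers and 6 are two-pore channels. The remaining row, Kcnq1ot1, is a noncoding antisense transcript and encodes no subunit. The cells came from dorsal root ganglia of the mouse strains CAST/Ei and C57BL/6, and each of 516 cells was a library of its own. Cells labelled as in vitro axotomy were dissociated, which severs the axon, plated for 48 h with the mitotic inhibitor ara-C added at 24 h, and then captured (cultured cells). Naive cells were captured without plating. The labels name no animal, dish or age, so each of the 4 groups stood as 1 sample, and no difference between groups could be tested.

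Potassium channels let potassium leave the cell, which sets the resting potential and ends the action potential. Voltage-gated channels are tetramers of pore-forming subunits, some of them joined by silent subunits that make no channel alone and by accessory subunits that set surface level and gating. Two-pore channels carry background current, inward rectifiers pass current best near rest, and channels opened by calcium or sodium shape the afterhyperpolarisation of a spike. In sensory neurons these channels act as brakes on firing, and smaller potassium currents are a known feature of neurons after nerve injury.

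The cells held 496696577 reads in total, between 13932 and 2978345 in a single cell (median 839147), of which the members took 0.238%. Levels are given for neuronal cells, taken from 13 clusters that were computed without the members. They made up 78 of 99 cultured CAST/Ei cells and 89.7% of naive CAST/Ei cells (18 others), and 37 cultured C57BL/6 cells (74 others) and 87.9% of naive C57BL/6 cells (16 others). Reads were summed over the neuronal cells of a group and scaled to counts per 1e6 reads of the table (CPM), with exact 95% Poisson intervals that cover counting error only. A ratio is the log2 ratio of CPM + 1, which understates differences of low genes, and a gene is called higher or lower where it was at least 2-fold apart. Fewer expressing cells and less RNA per cell cannot be told apart in such sums. The 15 neuron markers were all read in every group, at a summed level of 10635 CPM in cultured and 18964 CPM in naive CAST/Ei cells, and 9874 CPM in cultured and 18498 CPM in naive C57BL/6 cells. All but 2 of the cultured neuronal cells lay in clusters 2 and 3, which held no naive cell. Neither cluster had a neuron marker among its top 10 genes. The mean log2(CPM + 1) of the neuron list was 6.93 in cluster 2 and 7.73 in cluster 3. That of the glia list was 4.46 in cluster 2 and 5.69 in cluster 3. Over all neuronal cells the neuron list mean was 7.33 in cultured and 9.03 in naive CAST/Ei cells, and 7.36 and 9.08 in C57BL/6.

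RefSeq start sites (build GRCm38.p6) matched 38 of the 49 members, with 57 promoters, and the 250 bases before the start were read. Those of 4 genes are shown. Dpp10, Kcnip2 and Kcnd3 encode parts of the same channel, the Kv4 complex, and were among the members furthest apart after culture. Kcnh6, an erg-type voltage-gated subunit, is shown because its promoter held both parts of RE1, the element bound by the repressor REST. Capitals mark motif matches, and each sequence reads 5′ to 3′ on the strand of its gene.
Kcnh6 (chr11:106007898-106008147, plus strand): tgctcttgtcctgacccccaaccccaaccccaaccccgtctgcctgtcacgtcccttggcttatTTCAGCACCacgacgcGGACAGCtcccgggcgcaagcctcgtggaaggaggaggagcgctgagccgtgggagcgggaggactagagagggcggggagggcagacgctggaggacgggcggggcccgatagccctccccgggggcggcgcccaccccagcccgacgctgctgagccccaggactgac
Dpp10 (chr1:124045560-124045809, minus strand): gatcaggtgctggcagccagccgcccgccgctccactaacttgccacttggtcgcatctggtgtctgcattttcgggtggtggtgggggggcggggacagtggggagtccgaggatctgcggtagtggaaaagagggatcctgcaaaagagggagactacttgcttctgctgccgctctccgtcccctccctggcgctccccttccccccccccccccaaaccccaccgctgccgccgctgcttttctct
Kcnip2 (chr19:45816064-45816313, minus strand): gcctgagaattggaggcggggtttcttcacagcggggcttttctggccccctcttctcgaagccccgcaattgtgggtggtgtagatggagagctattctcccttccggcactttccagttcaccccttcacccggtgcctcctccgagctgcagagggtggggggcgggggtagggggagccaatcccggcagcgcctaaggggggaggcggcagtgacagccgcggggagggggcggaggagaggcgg
Kcnd3 (chr3:105451640-105451889, plus strand): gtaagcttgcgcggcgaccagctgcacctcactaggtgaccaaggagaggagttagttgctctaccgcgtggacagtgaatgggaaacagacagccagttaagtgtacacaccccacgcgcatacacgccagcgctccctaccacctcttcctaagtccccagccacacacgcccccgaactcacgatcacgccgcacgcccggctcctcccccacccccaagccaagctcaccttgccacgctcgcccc

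Both strands were searched for AP-1 (TGANTCA), CRE (TGACGTCA), the left part of RE1 (TTCAGCACC), its right part (GGACAGC) and the E-box (CACGTG). The left RE1 part was found in 1 of 57 member promoters, that of Kcnh6, against 0.301% of all 32851 promoters, and in Kcnh6 the right part lay 7 bases away. The right part was found in 5 member promoters (8.77%, against 5.28% of all), in Kcnh6, Kcnip3, Kcnk1, Kcnk10 and Kcnq5. AP-1 was found in 3 (5.26% against 6.75%), in Kcnip3, Kcnip4 and Kcnk2. The E-box was found in 3 (5.26% against 6.02%), belonging to Kcnab1 and Kcnn4, and CRE in 0 (against 1.55%). The promoters of Dpp10, Kcnip2 and Kcnd3 held none of these letters in this window. The first bases after the Kcnip2 and Kcnd3 starts were found in no annotated transcript of the gene, unlike those of Kcnh6 and Dpp10. These starts therefore differ from the annotated ones. The Kcnip2 window ended at base 45816064, close to the annotated gene start at 45816061 on the minus strand. The Kcnd3 window ended at base 105451889, further from its annotated gene start at 105452330. The start site of Kcnd3 is therefore less sure than that of Kcnip2. The RE1 parts were searched for singly, and a whole RE1 was not. A match describes the sequence, and binding was not measured.

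In naive neuronal cells 29 members reached 20 CPM in CAST/Ei and 31 in C57BL/6. Levels of different genes are compared per kilobase of exon. The most abundant member on that scale was Kcnip4, a calcium-binding accessory subunit of Kv4 channels, with 130.9 CPM per kb in CAST/Ei and 130.1 CPM per kb in C57BL/6. Kcnip2, of the same subunit family, had 80.9 CPM per kb in CAST/Ei and 65.6 in C57BL/6, and the inward rectifier Kcnj12 had 67.1 and 52.2 CPM per kb in the same order. Dpp10 had 54.2 CPM per kb in CAST/Ei and 14.5 in C57BL/6. Kcnmb1, a beta subunit of the large-conductance calcium-activated (BK) channel, had 27.6 CPM per kb in CAST/Ei and 69.3 in C57BL/6. Among the voltage-gated pore-forming genes, Kcnc2 had 13.8 and 14.6, Kcnd3 13.4 and 14.6, and Kcna1 13.4 and 21.9 CPM per kb in CAST/Ei and C57BL/6.

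**Figure D1:**
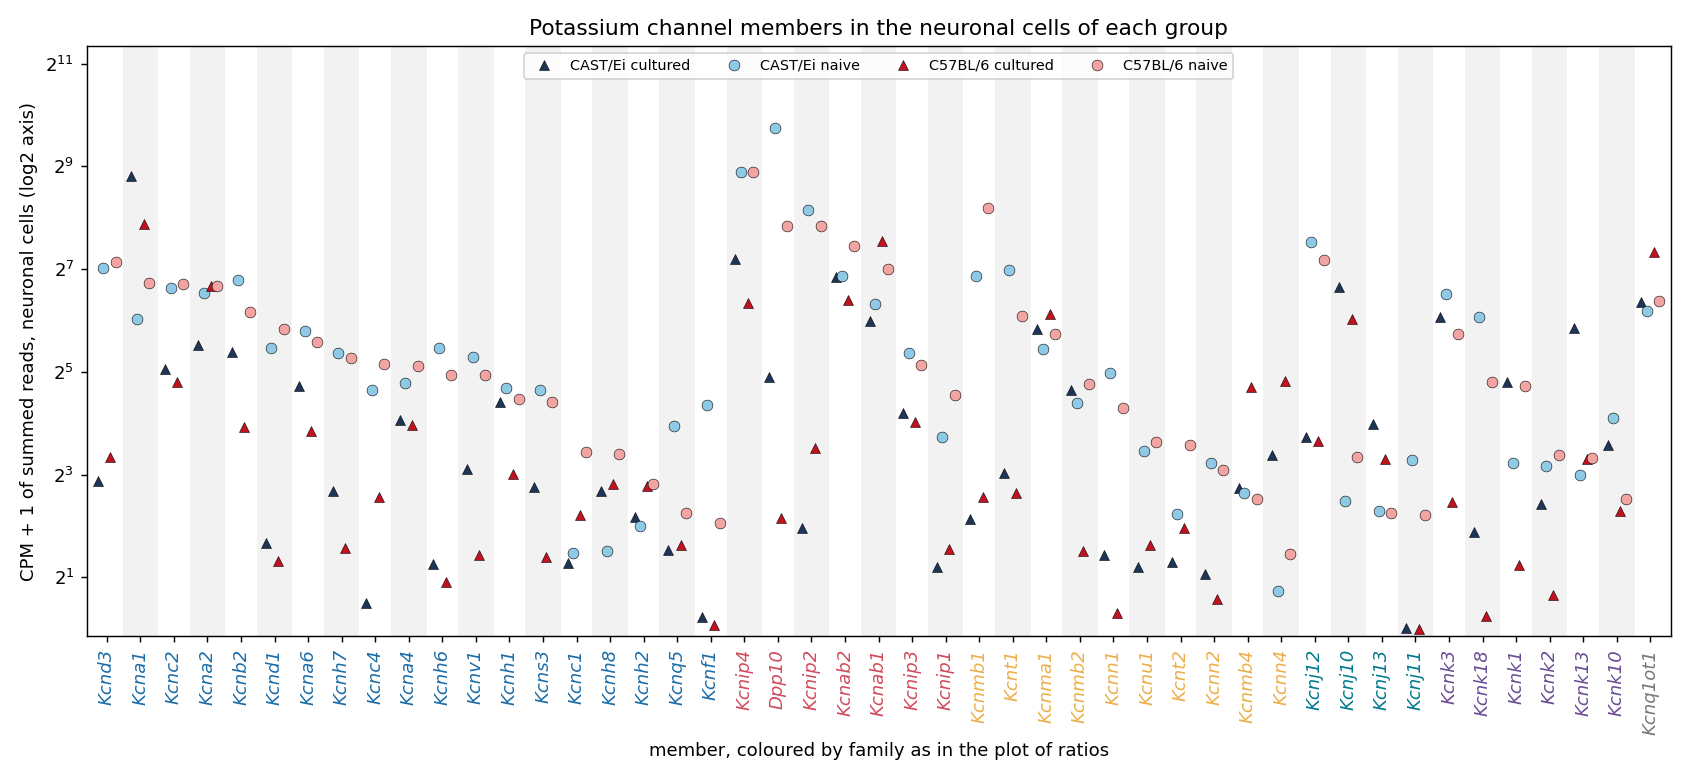
CPM + 1 of the members shown (log2 axis) in reads summed over the neuronal cells of a group, with triangles for cultured and circles for naive cells, blue for CAST/Ei and red for C57BL/6, and member names coloured by family. Triangles lie below circles for most members, as for Dpp10 (28.7 against 855 CPM in CAST/Ei, 3.48 against 228 CPM in C57BL/6), and above them for Kcna1, Kcnj10 and Kcnn4.

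Most of the 49 members were lower in cultured than in naive neuronal cells in each strain. Beside each count stands the percentage of all 11251 genes called in the same way. In CAST/Ei 27 of 49 members were at least 2-fold lower (20.2% of all genes) and 7 higher (24.1% of all genes). In C57BL/6 34 members were lower (23.6% of all genes) and 5 higher (22.8% of all genes). The median log2 ratio of the members was -1.16 in CAST/Ei and -2.003 in C57BL/6, and that of all genes was 0.11 and -0.06. In both strains 25 members were lower, which is 92.6% of the CAST/Ei list and 73.5% of the C57BL/6 list, against 12.5% of all genes. The 4 members higher in both were Kcna1, Kcnj10, Kcnj13 and Kcnn4, against 14% of all genes. Kcnab1, Kcnh2, Kcnk10, Kcnma1 and the noncoding Kcnq1ot1 were among those under 2-fold apart in both strains. Kcnq1ot1 had 80.8 CPM in cultured and 71.3 CPM in naive CAST/Ei cells (log2 ratio 0.18), and 160.4 CPM in cultured and 81.8 CPM in naive C57BL/6 cells (log2 ratio 0.96). The summed level of all members was 1566 CPM in cultured and 3683 CPM in naive CAST/Ei cells, and 1273 CPM in cultured and 3239 CPM in naive C57BL/6 cells. Of 15 neuron markers 6 were lower and 1 higher in CAST/Ei, and 8 lower and 1 higher in C57BL/6. Of 8 itch markers 8 were lower in CAST/Ei and 6 in C57BL/6. In the same order, 5 and 4 of 5 non-peptidergic and 6 and 4 of 6 peptidergic markers were lower. Of 3 low-threshold C-fibre markers 2 and 3 were lower. None of these subtype markers was higher. Of 7 myelinated markers 2 and 3 were lower and 1 and 2 higher. The lower calls are not read as particular to the members.

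Cultured levels rested on fewer cells than naive ones. In CAST/Ei 16 members took over 50% of their reads from 1 cell in the cultured group and 1 member did in the naive group. In C57BL/6 it was 21 members in the cultured group and 0 in the naive group. The median cell had no read of 36 members in cultured and 15 in naive CAST/Ei cells, and of 33 members in cultured and 18 in naive C57BL/6 cells. Without the cell with most reads of each gene, 2 members were higher in cultured C57BL/6 cells and 4 in cultured CAST/Ei cells. The median log2 ratio of all genes was then -0.42 in C57BL/6 and -0.23 in CAST/Ei, and their share called is not given. Markers of dividing cells moved with the culture comparison. All 6 of them were higher in cultured neuronal cells of both strains, at a summed level of 710.2 CPM in cultured and 7.76 CPM in naive CAST/Ei cells, and 676 CPM in cultured and 3.64 CPM in naive C57BL/6 cells. In single cells the sum ranged from 0 to 3055 CPM in cultured and from 0 to 115.9 CPM in naive CAST/Ei cells, and from 0 to 2321 CPM in cultured and from 0 to 87.3 CPM in naive C57BL/6 cells. The median cell had 495 CPM in cultured CAST/Ei and 663 CPM in cultured C57BL/6 cells, against 0 in naive cells of both strains, and the part of this shift in the ratios of the members was not tested.

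**Figure D2:**
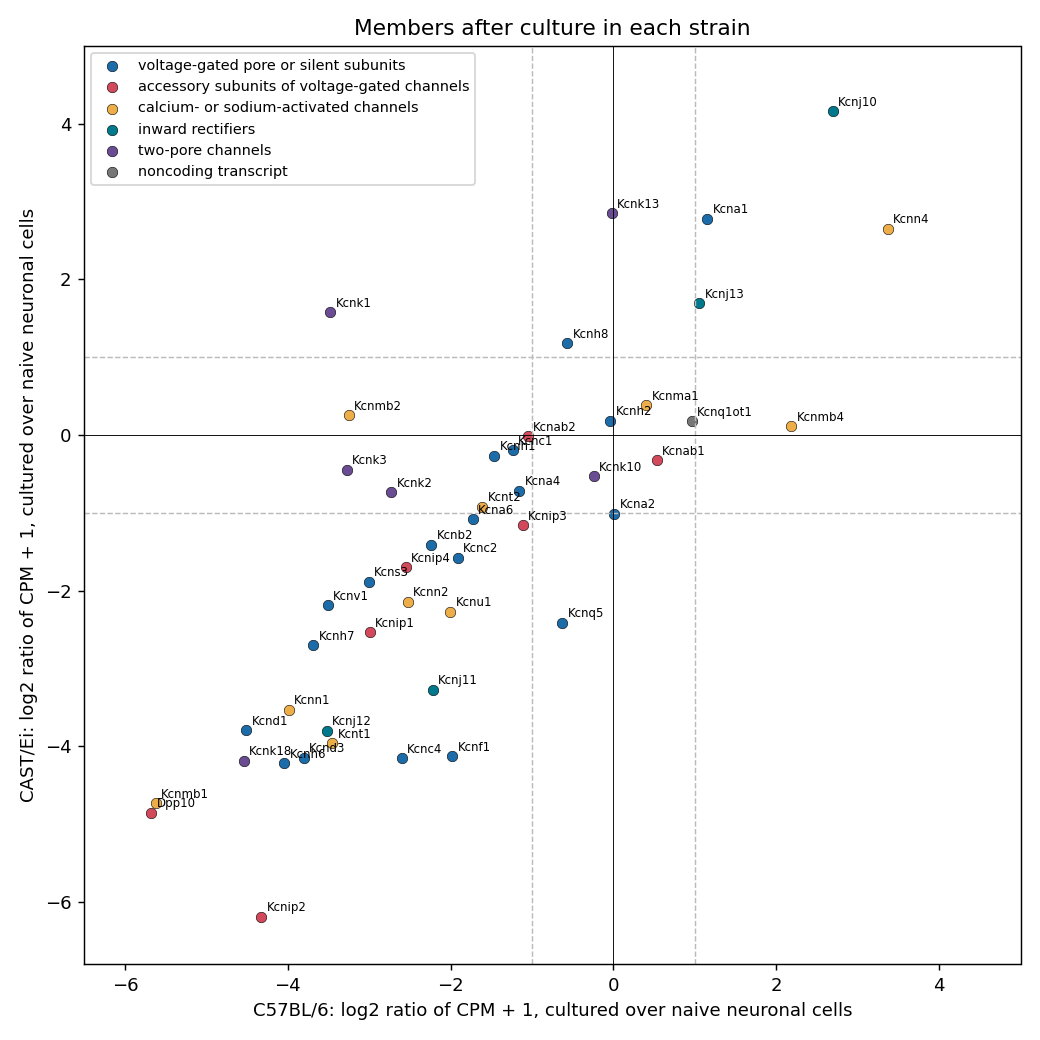
Log2 ratio of CPM + 1, cultured over naive neuronal cells, for C57BL/6 (x axis) and CAST/Ei (y axis), with 1 point per member shown, coloured by family and dashed lines at 2-fold. Members lower in both strains fill the lower left, Kcna1, Kcnj10, Kcnj13 and Kcnn4 lie in the upper right, and Kcnk1 is past 2-fold in opposite directions (1.58 in CAST/Ei and -3.48 in C57BL/6).

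The pore subunit genes of the Kv4 complex, which carries a fast A-type current, were lower in cultured cells. Kcnd3 had 6.32 CPM (5.80 to 6.88) in cultured and 128.8 CPM (127.1 to 130.6) in naive CAST/Ei cells (log2 ratio -4.15), and 9.13 CPM (7.87 to 10.5) in cultured and 140.3 CPM (137.9 to 142.7) in naive C57BL/6 cells (log2 ratio -3.80). Kcnd1, the other Kv4 pore subunit in the table, had 2.198 CPM (1.89 to 2.54) in cultured and 43.4 CPM (42.4 to 44.5) in naive CAST/Ei cells (log2 ratio -3.80), and 1.497 CPM (1.02 to 2.13) in cultured and 55.9 CPM (54.4 to 57.5) in naive C57BL/6 cells (log2 ratio -4.51). The median cultured cell held no read of Kcnd3 in either strain, against 28.9 CPM in naive CAST/Ei and 36.6 CPM in naive C57BL/6 cells.

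Of the 7 accessory subunits 5 were lower in CAST/Ei (20.2% of all genes) and 6 in C57BL/6 (23.6% of all genes). In each strain 0 were higher (24.1% of all genes in CAST/Ei, 22.8% of all genes in C57BL/6). Dpp10, a membrane protein that speeds Kv4 gating, had 28.7 CPM (27.5 to 29.8) in cultured and 855 CPM (850.5 to 859.6) in naive CAST/Ei cells (log2 ratio -4.85). In C57BL/6 it had 3.48 CPM (2.72 to 4.38) in cultured and 228 CPM (225 to 231) in naive C57BL/6 cells (log2 ratio -5.68). A single cell supplied 53.05% of the cultured CAST/Ei reads and 77.8% of the cultured C57BL/6 reads. The median cultured cell was at 0 in both strains, against 679 CPM in naive CAST/Ei and 140.7 CPM in naive C57BL/6 cells. With each cell thinned to 200000 reads, the share of cells with 5 or more reads of Dpp10 (exact Clopper-Pearson intervals) was 18.6% (10.3 to 29.7) in cultured and 93.2% (87.9 to 96.7) in naive CAST/Ei cells. It was 3.33% (0.0844 to 17.2) in cultured and 78.9% (70.04 to 86.1) in naive C57BL/6 cells. Without thinning the shares were 28.2% in cultured and 96.2% in naive CAST/Ei cells, and 5.41% in cultured and 84.5% in naive C57BL/6 cells. In cultured cells outside the neuronal set the thinned share was 10% (1.23 to 31.7) in CAST/Ei and 0% (0 to 5.36) in C57BL/6, with intervals that overlap those of the cultured neuronal cells.

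Kcnip2 had 2.86 CPM (2.51 to 3.25) in cultured and 281 CPM (279 to 284) in naive CAST/Ei cells (log2 ratio -6.19), and 10.4 CPM (9.09 to 11.9) in cultured and 228 CPM (225 to 231) in naive C57BL/6 cells (log2 ratio -4.33). After thinning it was found in 5.71% (1.58 to 13.99) of cultured and 90.5% (84.6 to 94.7) of naive CAST/Ei cells, and in 10% (2.11 to 26.5) of cultured and 72.5% (63.1 to 80.6) of naive C57BL/6 cells. Kcnip4, the most abundant naive member per kb, had 145.9 CPM in cultured and 475 CPM in naive CAST/Ei cells (log2 ratio -1.70), and 79.7 CPM in cultured and 472 CPM in naive C57BL/6 cells (log2 ratio -2.55). Kcnip1 had 1.28 CPM in cultured and 12.2 CPM in naive CAST/Ei cells (log2 ratio -2.53), and 1.93 CPM in cultured and 22.4 CPM in naive C57BL/6 cells (log2 ratio -2.995), and Kcnip3 had 17.5 CPM in cultured and 40.3 CPM in naive CAST/Ei cells (log2 ratio -1.16), and 15.3 CPM in cultured and 34.2 CPM in naive C57BL/6 cells (log2 ratio -1.11). For Kcnip3 1 cell supplied 73.1% of the cultured C57BL/6 reads, and without the top cell of each group its C57BL/6 log2 ratio was -2.63.

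The other 2 accessory genes encode beta subunits of Kv1 channels. Kcnab1 had 62.5 CPM in cultured and 78.6 CPM in naive CAST/Ei cells (log2 ratio -0.33), and 185 CPM in cultured and 127.9 CPM in naive C57BL/6 cells (log2 ratio 0.53), where 1 cell supplied 79.95% of the cultured C57BL/6 reads. Kcnab2 had 114.3 CPM in cultured and 115.6 CPM in naive CAST/Ei cells (log2 ratio -0.02), and 82.9 CPM in cultured and 173.3 CPM in naive C57BL/6 cells (log2 ratio -1.06). Only Kcnab2 in C57BL/6 passed 2-fold among these 4 ratios.

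Of the 21 voltage-gated pore-forming and silent subunits, 14 were lower (20.2% of all genes) and 2 higher (24.1% of all genes) in CAST/Ei. In C57BL/6 15 were lower (23.6% of all genes) and 1 higher (22.8% of all genes). Kcnb2, a subunit of delayed rectifier channels, had 40.6 CPM in cultured and 109.4 CPM in naive CAST/Ei cells (log2 ratio -1.41), and 14.2 CPM in cultured and 70.8 CPM in naive C57BL/6 cells (log2 ratio -2.23). Silent subunits were lower as well. Kcns3 had log2 ratios of -1.89 in CAST/Ei and -3.01 in C57BL/6, Kcnv1 of -2.19 in CAST/Ei and -3.51 in C57BL/6, and Kcnf1 of -4.12 in CAST/Ei and -1.98 in C57BL/6.

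The erg-type genes differed from one another. Kcnh6, the gene with both RE1 parts, had 1.38 CPM (1.14 to 1.65) in cultured and 43.2 CPM (42.2 to 44.3) in naive CAST/Ei cells (log2 ratio -4.22), and 0.869 CPM (0.515 to 1.37) in cultured and 29.8 CPM (28.7 to 30.9) in naive C57BL/6 cells (log2 ratio -4.04). Kcnh7 had 5.37 CPM in cultured and 40.4 CPM in naive CAST/Ei cells (log2 ratio -2.70), and 1.98 CPM in cultured and 37.5 CPM in naive C57BL/6 cells (log2 ratio -3.69), with 74.8% of the cultured CAST/Ei reads from 1 cell. Kcnh2 was low throughout, with 3.53 CPM in cultured and 2.98 CPM in naive CAST/Ei cells (log2 ratio 0.18), and 5.89 CPM in cultured and 6.07 CPM in naive C57BL/6 cells (log2 ratio -0.04). Of the related eag and elk genes, Kcnh1 had 20.4 CPM in cultured and 24.7 CPM in naive CAST/Ei cells (log2 ratio -0.27), and 7.05 CPM in cultured and 21.3 CPM in naive C57BL/6 cells (log2 ratio -1.47), and Kcnh8 had 5.43 CPM in cultured and 1.84 CPM in naive CAST/Ei cells (log2 ratio 1.18), and 6.09 CPM in cultured and 9.52 CPM in naive C57BL/6 cells (log2 ratio -0.57).

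Of the Kv3 genes, whose channels allow fast firing, Kcnc2 had 32.4 CPM in cultured and 98.7 CPM in naive CAST/Ei cells (log2 ratio -1.58), and 26.9 CPM in cultured and 103.9 CPM in naive C57BL/6 cells (log2 ratio -1.91). Kcnc4 had 0.416 CPM in cultured and 24.1 CPM in naive CAST/Ei cells (log2 ratio -4.15), and 4.88 CPM in cultured and 34.7 CPM in naive C57BL/6 cells (log2 ratio -2.60), and Kcnc1 stayed under 10 CPM in all groups, with log2 ratios of -0.20 in CAST/Ei and -1.24 in C57BL/6. Kcnq5, a subunit of the M-current, a slow brake on firing, had log2 ratios of -2.41 in CAST/Ei and -0.63 in C57BL/6.

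Kcna1, a Kv1 pore subunit of axons, was higher in cultured CAST/Ei cells under every alternative computed, while its call in C57BL/6 ended under several. In CAST/Ei it had 446 CPM (441 to 450.1) in cultured and 64.1 CPM (62.9 to 65.4) in naive CAST/Ei cells (log2 ratio 2.78). In C57BL/6 it had 233 CPM (227 to 240.2) in cultured and 104.5 CPM (102.4 to 106.6) in naive C57BL/6 cells (log2 ratio 1.15), but 1 cell supplied 52.7% of the cultured reads, and without the top cell of each group the ratio was 0.48. The C57BL/6 ratio was 0.08 with cells classed by their own marker means, 0.31 by the mean of each cell's own CPM, 0.35 with all cells of a group and -0.29 without the 25% of neuronal cells highest in glial genes. The median cell had 159.2 CPM in cultured and 21.6 CPM in naive CAST/Ei cells, and 57.4 CPM in cultured and 37.9 CPM in naive C57BL/6 cells. The other Kv1 genes did not follow: Kcna2 had log2 ratios of -1.01 in CAST/Ei and 0.01 in C57BL/6, Kcna4 of -0.72 in CAST/Ei and -1.15 in C57BL/6, and Kcna6 of -1.08 in CAST/Ei and -1.73 in C57BL/6. Of the exon bases of Kcna6, 39.6% overlap a gene on the other strand, whose reads cannot be told apart where counting ignores strand.

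**Figure D3:**
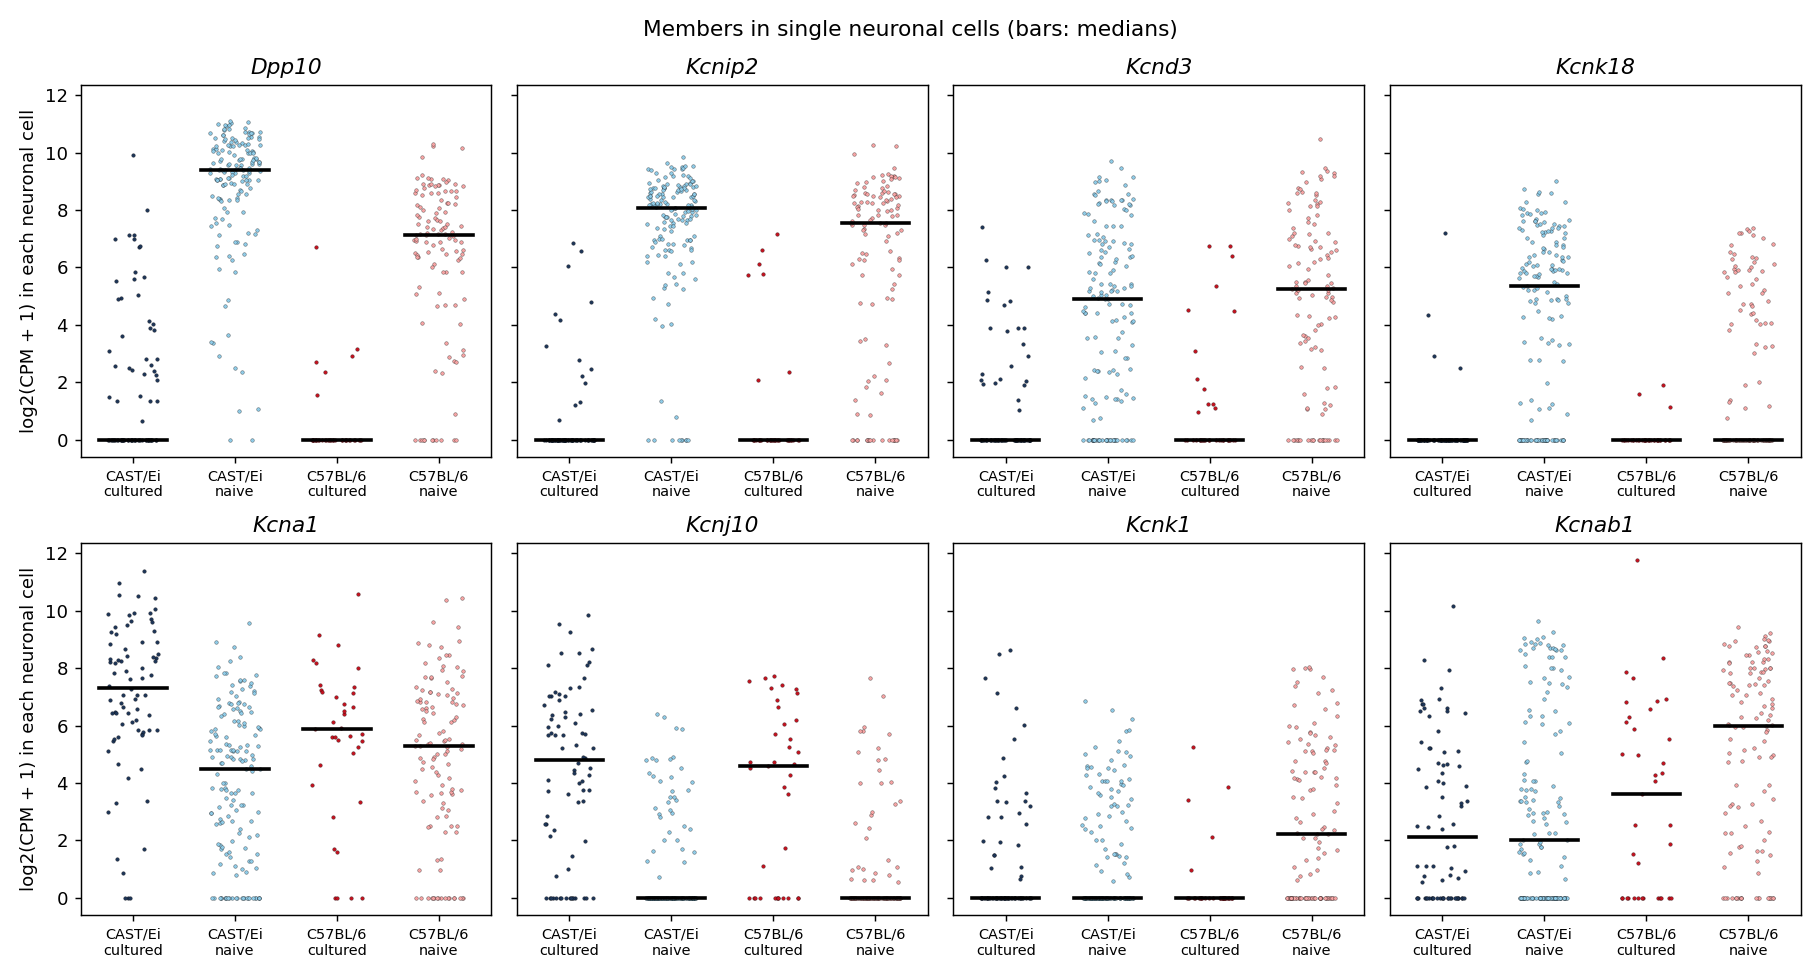
Log2(CPM + 1) of 8 members (panels) in single neuronal cells (points) by group, with bars at the medians. The median cultured cell was at 0 for Dpp10, Kcnip2 and Kcnd3 in both strains, while for Kcna1 it was at 159.2 CPM in cultured and 21.6 CPM in naive CAST/Ei cells.

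Of the 10 genes of calcium- or sodium-activated channels, 5 were lower (20.2% of all genes) and 1 higher (24.1% of all genes) in CAST/Ei. In C57BL/6 7 were lower (23.6% of all genes) and 2 higher. These 2 were 20% of the 10, near the share of all genes (22.8%). Kcnma1, the BK pore subunit, had 55.9 CPM in cultured and 42.7 CPM in naive CAST/Ei cells (log2 ratio 0.38), and 69.1 CPM in cultured and 51.97 CPM in naive C57BL/6 cells (log2 ratio 0.40), under 2-fold in both. Its beta subunit Kcnmb1 had 3.399 CPM (3.02 to 3.82) in cultured and 115.8 CPM (114.2 to 117.5) in naive CAST/Ei cells (log2 ratio -4.73), and 4.93 CPM (4.02 to 5.98) in cultured and 290.3 CPM (287 to 294) in naive C57BL/6 cells (log2 ratio -5.62). Kcnmb2 had 24.03 CPM in cultured and 19.97 CPM in naive CAST/Ei cells (log2 ratio 0.26), and 1.84 CPM in cultured and 26.04 CPM in naive C57BL/6 cells (log2 ratio -3.25), with 85.1% of the cultured CAST/Ei reads from 1 cell. Kcnmb4 had 5.72 CPM in cultured and 5.20 CPM in naive CAST/Ei cells (log2 ratio 0.11), and 24.97 CPM in cultured and 4.73 CPM in naive C57BL/6 cells (log2 ratio 2.18), with 75.4% of the cultured C57BL/6 reads from 1 cell and a C57BL/6 log2 ratio of 0.90 without the top cells. Of its exon bases 31.5% overlap a transcript on the other strand.

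Kcnt1, a sodium-activated channel gene, had 7.13 CPM (6.57 to 7.72) in cultured and 125.5 CPM (123.8 to 127.3) in naive CAST/Ei cells (log2 ratio -3.96), and 5.22 CPM (4.28 to 6.30) in cultured and 66.99 CPM (65.3 to 68.7) in naive C57BL/6 cells (log2 ratio -3.45). The small-conductance gene Kcnn1 had 1.71 CPM in cultured and 30.3 CPM in naive CAST/Ei cells (log2 ratio -3.53), and 0.242 CPM in cultured and 18.7 CPM in naive C57BL/6 cells (log2 ratio -3.99). Kcnn2, of the same family, had log2 ratios of -2.14 in CAST/Ei and -2.53 in C57BL/6, Kcnt2, a relative of Kcnt1, of -0.92 in CAST/Ei and -1.61 in C57BL/6, and Kcnu1, known as a sperm channel, of -2.27 in CAST/Ei and -2.003 in C57BL/6, and none of the 3 passed 12 CPM in any group. Kcnn4, an intermediate-conductance channel known from immune cells, was higher in cultured cells, with 9.40 CPM (8.76 to 10.08) in cultured and 0.653 CPM (0.534 to 0.792) in naive CAST/Ei cells (log2 ratio 2.65), and 27.4 CPM (25.2 to 29.8) in cultured and 1.75 CPM (1.498 to 2.04) in naive C57BL/6 cells (log2 ratio 3.37).

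Of the 4 inward rectifiers Kcnj11 and Kcnj12 were lower (12.5% of all genes) and Kcnj10 and Kcnj13 higher (14% of all genes) in both strains. Kcnj12, a strong inward rectifier, had 12.3 CPM (11.6 to 13.1) in cultured and 184 CPM (182 to 187) in naive CAST/Ei cells (log2 ratio -3.80), and 11.6 CPM (10.2 to 13.2) in cultured and 143.5 CPM (141.1 to 145.9) in naive C57BL/6 cells (log2 ratio -3.52). Kcnj11, the pore subunit of the ATP-sensitive channel, had 1 read in cultured CAST/Ei cells, against 8.78 CPM in naive ones. It had 0 reads in cultured and 3.66 CPM in naive C57BL/6 cells, at least 25.2-fold lower with 3 reads over the group as the limit. Kcnj10, known as the potassium-buffering channel of satellite glia, had 99.7 CPM (97.5 to 101.8) in cultured and 4.64 CPM (4.31 to 4.98) in naive CAST/Ei cells (log2 ratio 4.16), and 64.7 CPM (61.3 to 68.2) in cultured and 9.15 CPM (8.55 to 9.78) in naive C57BL/6 cells (log2 ratio 2.69). Kcnj13 had 14.9 CPM in cultured and 3.91 CPM in naive CAST/Ei cells (log2 ratio 1.69), and 8.89 CPM in cultured and 3.76 CPM in naive C57BL/6 cells (log2 ratio 1.05). Of its exon bases 49.1% overlap a gene on the other strand, and its higher calls ended without the top cells (0.98 in CAST/Ei and 0.80 in C57BL/6). Its C57BL/6 direction turned when all cells were counted (-1.19).

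Among the two-pore channels 1 of 6 was lower in CAST/Ei, 16.7% of them and near the share of all genes (20.2%), and 2 were higher (24.1% of all genes). In C57BL/6 4 were lower (23.6% of all genes) and 0 higher (22.8% of all genes). Kcnk18, a background channel of nociceptors, had 2.67 CPM (2.34 to 3.05) in cultured and 65.9 CPM (64.7 to 67.2) in naive CAST/Ei cells (log2 ratio -4.19), and 0.193 CPM (0.0526 to 0.495) in cultured and 26.8 CPM (25.8 to 27.9) in naive C57BL/6 cells (log2 ratio -4.54). In cultured CAST/Ei cells its reads came from 4 cells, 87.6% of them from 1 cell. Kcnk3, an acid-sensitive channel, had 66.3 CPM (64.5 to 68.02) in cultured and 90.6 CPM (89.1 to 92.1) in naive CAST/Ei cells (log2 ratio -0.45), and 4.49 CPM (3.63 to 5.50) in cultured and 52.1 CPM (50.7 to 53.6) in naive C57BL/6 cells (log2 ratio -3.27), with 49.8% of the cultured CAST/Ei reads from 1 cell. Kcnk1, a weak background channel, had 26.95 CPM (25.9 to 28.1) in cultured and 8.36 CPM (7.92 to 8.82) in naive CAST/Ei cells (log2 ratio 1.58), and 1.35 CPM (0.899 to 1.95) in cultured and 25.3 CPM (24.3 to 26.3) in naive C57BL/6 cells (log2 ratio -3.48). Kcnk13 had 56.7 CPM in cultured and 6.98 CPM in naive CAST/Ei cells (log2 ratio 2.85), and 8.89 CPM in cultured and 9.04 CPM in naive C57BL/6 cells (log2 ratio -0.02), with 77.9% of the cultured CAST/Ei reads from 1 cell and a CAST/Ei log2 ratio of 0.87 without the top cells. The mechanically gated relatives Kcnk2 and Kcnk10 had log2 ratios of -0.73 and -0.53 in CAST/Ei and of -2.73 and -0.24 in C57BL/6.

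Kcnj10, Kcnn4 and Kcna1 were also read in cultured cells outside the neuronal set, in cluster 6. Its highest marker list was that of glia, but 0 glia markers were among its top 10 genes, which held the dividing-cell genes Cenpa and Nusap1. There Kcnj10 had 149.5 CPM in CAST/Ei and 159.4 CPM in C57BL/6, Kcnn4 38.05 and 49.6 CPM, and Kcna1 316 and 201 CPM. In the neuronal clusters 2 and 3 Kcna1 had 535 and 269.8 CPM in CAST/Ei, and 389 and 81.4 CPM in C57BL/6. After thinning, Kcnj10 was found in 50% (37.8 to 62.2) of cultured neuronal and 50% (27.2 to 72.8) of other cultured CAST/Ei cells, and in 50% (31.3 to 68.7) of cultured neuronal and 61.2% (48.5 to 72.9) of other cultured C57BL/6 cells, so its share was no higher in the neuronal than in the other cultured cells. Of the 14 glia markers in the table, 9 were higher and 0 lower in cultured than in naive CAST/Ei neuronal cells, and 9 higher and 1 lower in C57BL/6, with 0 of them at 0 in any group. Their summed level in single cells ranged from 486 to 16378 CPM in cultured and from 557 to 34532 CPM in naive CAST/Ei cells. In C57BL/6 it ranged from 415 to 10789 CPM in cultured and from 327 to 19438 CPM in naive cells. Of the 12 fibroblast and vascular markers 8 were higher and 1 lower in cultured cells of each strain. The part of glial, dividing-cell and other RNA in the higher members was not tested. Without the 25% of neuronal cells highest in glial genes, the log2 ratio of Kcna1 was 3.004 in CAST/Ei, while in C57BL/6 it turned negative, as given above. The glia list mean of the cells left was 4.43 in cultured and 2.59 in naive CAST/Ei cells, and 4.54 and 2.56 in C57BL/6. This setting therefore does not remove the difference in glial genes.

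Naive neuron subtypes differ in their channel genes, so cultured levels were also set against each naive class described below. In CAST/Ei 9 of 49 members were at least 2-fold below each of 5 naive classes (6.15% of all genes) and 4 at least 2-fold above each (13.8% of all genes). In C57BL/6 6 members were below each of 6 classes (4.17% of all genes) and 3 above each (11.7% of all genes). Dpp10, Kcnd1 and Kcnt1 were below all classes in both strains, and Kcnj10 and Kcnn4 above all in both. The lowest naive class for Dpp10 was the Tac1-high one, with 261 CPM in CAST/Ei and 19.1 CPM in C57BL/6. Kcna1 was above all 5 classes in CAST/Ei, where the Nefh-high class was too small to use, and in C57BL/6 lay below the Nefh-high class (607 CPM). Kcnd3, Kcnip4 and Kcnk18 lay between the lowest and the highest class in both strains.

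Between the naive groups 6 of 49 members were at least 2-fold higher in CAST/Ei than in C57BL/6 (7.23% of all genes) and 5 lower (6.2% of all genes). The counts were 3 and 1 with a pseudocount of 10 CPM, and 10 were higher when cluster 9 was left out. The share of all genes under these settings is not given, and the median log2 ratio of all genes was 0.04 and 0.09. Leaving out cluster 9 removes every Th-high C57BL/6 cell, while the 24 Th-high CAST/Ei cells stay. Dpp10 had 855 CPM (850.5 to 859.6) in CAST/Ei and 228 CPM (225 to 231) in C57BL/6 (log2 ratio 1.90), and Kcnk18 had 65.9 CPM (64.7 to 67.2) in CAST/Ei and 26.8 CPM (25.8 to 27.9) in C57BL/6 (log2 ratio 1.27). Kcnmb1 had 115.8 CPM (114.2 to 117.5) in CAST/Ei and 290.3 CPM (287 to 294) in C57BL/6 (log2 ratio -1.32), and Kcnk1 8.36 CPM (7.92 to 8.82) in CAST/Ei and 25.3 CPM (24.3 to 26.3) in C57BL/6 (log2 ratio -1.49). The other 7 called members were under 20 CPM in both strains: Kcnf1, Kcnq5, Kcnk10 and Kcnj11 were higher and Kcnc1, Kcnh8 and Kcnt2 lower in CAST/Ei. Subtype markers moved with the naive strain comparison. Of 7 markers of myelinated neurons 3 were lower and 0 higher in CAST/Ei, among them Nefh, with 51.9 CPM in CAST/Ei and 232 CPM in C57BL/6 (log2 ratio -2.14), and of 8 itch markers 4 were higher and 0 lower. Kcnk1, Kcnc1 and Kcnh8 were highest in the Nefh-high class of naive C57BL/6 cells, which held 13 cells against 3 in CAST/Ei, and the part of subtype makeup in these ratios was not tested. Dpp10, Kcnf1, Kcnk18 and Kcnmb1 were at least 2-fold apart under every alternative computed, and the other 7 were not. CAST/Ei differs from the C57BL/6 reference genome at many bases, which can lower its counts, and that part was not tested.

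Between the cultured groups 14 members were at least 2-fold higher in CAST/Ei than in C57BL/6 (21.5% of all genes) and 6 lower (13.7% of all genes). With a pseudocount of 10 CPM the counts were 6 and 3, for which the share of all genes is not given. All 6 two-pore genes were higher, with log2 ratios of 3.61 for Kcnk3, 3.57 for Kcnk1, 2.54 for Kcnk13, 1.78 for Kcnk2, 1.62 for Kcnk18 and 1.30 for Kcnk10. Without the top cells the ratio of Kcnk18 was 0.28, and those of Kcnab1 and Kcnmb4, lower in CAST/Ei, were -0.25 and -0.38. Dpp10 had 28.7 CPM (27.5 to 29.8) in CAST/Ei and 3.48 CPM (2.72 to 4.38) in C57BL/6 (log2 ratio 2.73), Kcnmb2 24.03 CPM in CAST/Ei and 1.84 CPM in C57BL/6 (log2 ratio 3.14) and Kcnb2 40.6 CPM in CAST/Ei and 14.2 CPM in C57BL/6 (log2 ratio 1.45). Of the 14, Dpp10, Kcnk1, Kcnk3, Kcnk13 and Kcnmb2 were at least 2-fold higher under every alternative computed. Lower in CAST/Ei were Kcnab1, with 62.5 CPM in CAST/Ei and 185 CPM in C57BL/6 (log2 ratio -1.55), Kcna2, with 45.1 CPM in CAST/Ei and 101.5 CPM in C57BL/6 (log2 ratio -1.15), Kcnn4, Kcnmb4, Kcnc4 and Kcnip2, and 0 of these 6 were so under every alternative. These strain ratios use the same cells as the culture ratios. The cultured groups also differed in makeup. Cluster 2 held 44 cultured CAST/Ei and 13 cultured C57BL/6 cells, and cluster 3 held 33 and 23. Of 8 itch markers 4 were higher and 2 lower in cultured CAST/Ei cells, among them Mrgpra3 (log2 ratio 3.70) and Sst (log2 ratio -4.02). The part of cell makeup in these ratios was not tested.

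Naive neuronal cells were then divided by 6 subtype markers, none of them a member. A cell was high in a marker at 2 or more times its strain's mean, and a class held the cells high in 1 marker alone. Th marks low-threshold C fibres, Mrgprd non-peptidergic nociceptors, Mrgpra3 and Sst different itch neurons, Tac1 peptidergic nociceptors and Nefh myelinated neurons. The CAST/Ei Nefh-high cells went against that label: of the subtype lists 4 peptidergic and 2 myelinated markers were at least 2-fold higher in them, with Nefh at 146.6 CPM. The C57BL/6 Nefh-high cells had 6 myelinated and 0 peptidergic markers higher, with Nefh at 1978 CPM. In CAST/Ei there were 24 Th-high, 32 Mrgprd-high, 34 Mrgpra3-high, 11 Sst-high, 18 Tac1-high and 3 Nefh-high cells, 15 high in several markers and 19 in none. In C57BL/6 there were 20, 23, 15, 6, 17 and 13 cells in the same order, 1 high in several and 21 in none. Each class was set against the other classes of its strain, and a member was called where both strains passed 2-fold in the same direction. Levels below are given as those of the class against those of the other classes. Over the 5 classes with at least 5 cells in each strain, 30 of 49 members had the same highest class in both, which was the Th-high class for 14 and the Tac1-high class for 9. The same count was not made over all genes, so it is not read as particular to the members. Over all genes, higher calls in both strains were also most frequent in Tac1-high (5.50%) and Th-high (3.96%) cells.

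**Figure D4:**
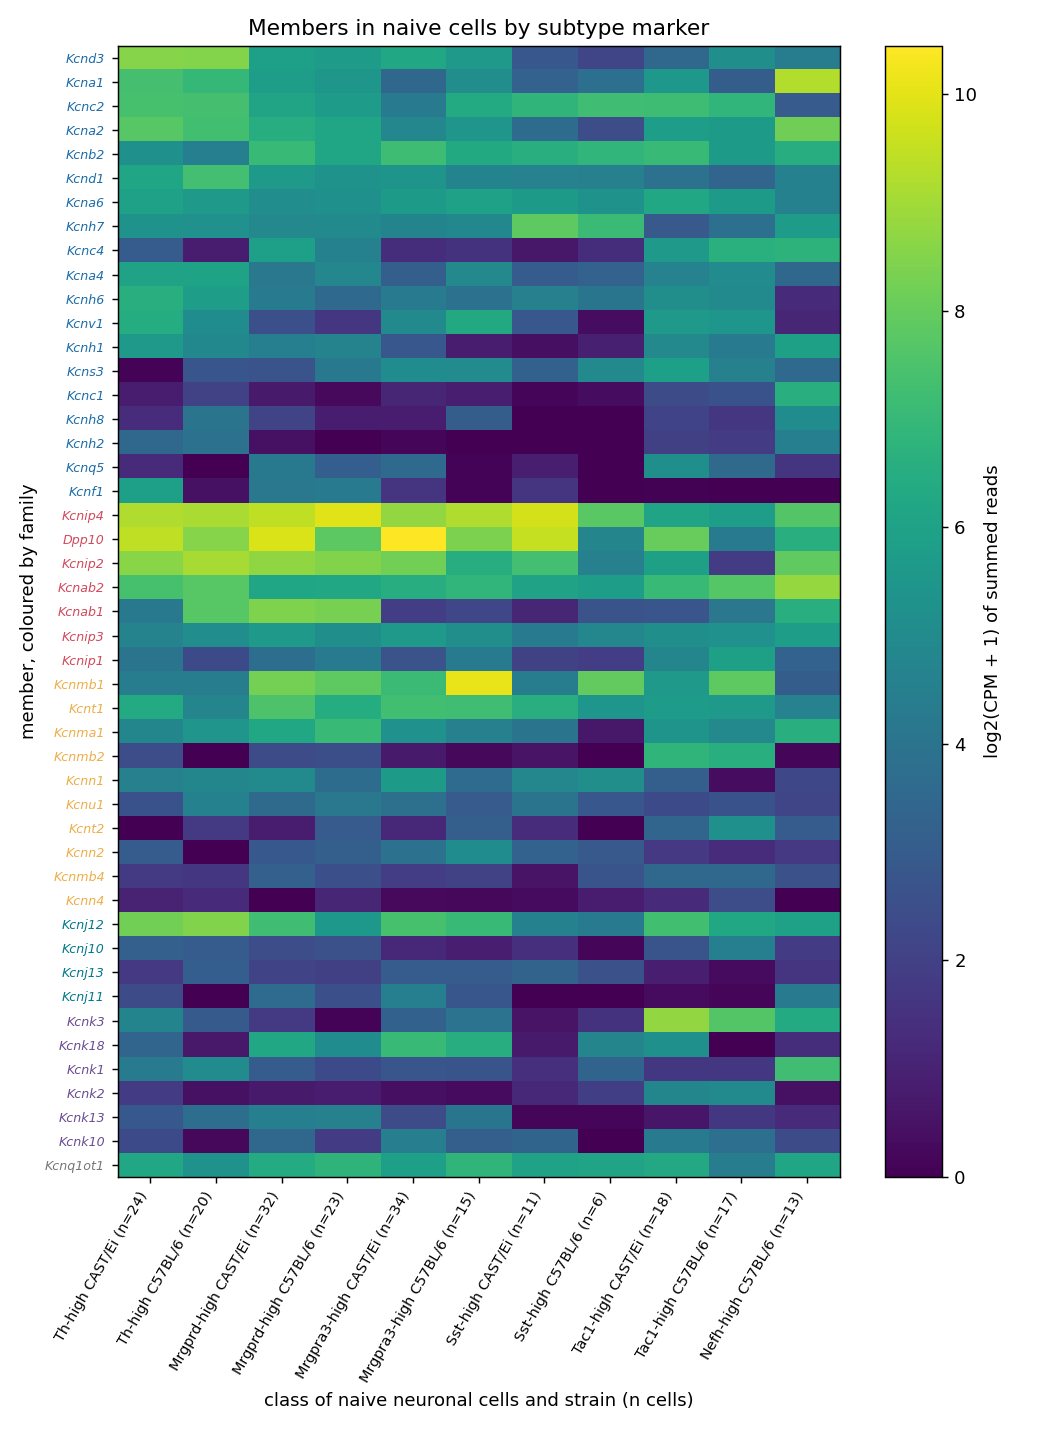
Log2(CPM + 1) (colour) of the members shown (rows) in reads summed over the cells of each naive class and strain (columns). Kcnd3 stands out in Th-high, Kcnh7 in Sst-high, and Kcnk3 and Kcnmb2 in Tac1-high cells of both strains. Kcnab1 stands out in Mrgprd-high cells of CAST/Ei, while in C57BL/6 it was also high in Th-high cells (209.7 CPM). The CAST/Ei Nefh-high class of 3 cells is not drawn.

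In Th-high cells 4 members were higher in both strains (3.96% of all genes) and 13 lower (6.78% of all genes). Kcnd3 had 369 CPM (363 to 375) against 47.8 CPM in CAST/Ei (log2 ratio 2.92) and 368 CPM (359 to 377) against 36.4 CPM in C57BL/6 (log2 ratio 3.30). Kcnh6 had 96.1 CPM against 23.2 CPM in CAST/Ei and 56.4 CPM against 16.8 CPM in C57BL/6, and Kcna4, an A-type Kv1 subunit, 63.8 CPM against 14.8 CPM in CAST/Ei and 65.5 CPM against 24.7 CPM in C57BL/6. Kcnh2 was the other, with 10.6 CPM against 0.836 CPM in CAST/Ei and 14.3 CPM against 3.62 CPM in C57BL/6. In C57BL/6 Kcnh2 was highest in Nefh-high cells, with 21.9 CPM. Kcnb2 was among the lower ones, with 36.5 CPM against 132.02 CPM in CAST/Ei and 21.997 CPM against 75.1 CPM in C57BL/6. All Th-high C57BL/6 cells belonged to cluster 9, which the naming rule as written leaves out of the neuronal set.

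In Mrgprd-high cells 3 members were higher (1.16% of all genes) and 8 lower (8.69% of all genes). Kcnab1 had 339 CPM (332 to 345) against 8.35 CPM in CAST/Ei (log2 ratio 5.18) and 312 CPM (302 to 321) against 77.4 CPM in C57BL/6 (log2 ratio 1.996). Its next highest class was the Th-high one, with 17.8 CPM in CAST/Ei and 209.7 CPM in C57BL/6. Kcnma1 had 75.4 CPM against 33.4 CPM in CAST/Ei and 133.2 CPM against 36.9 CPM in C57BL/6, and Kcnk13, a two-pore channel, 21.7 CPM against 3.87 CPM in CAST/Ei and 22.5 CPM against 7.42 CPM in C57BL/6. Kcnd3 was lower, with 59.1 CPM against 153.3 CPM in CAST/Ei and 51.7 CPM against 126.99 CPM in C57BL/6.

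In Mrgpra3-high cells 2 members were higher (1.36% of all genes) and 12 lower (6.18% of all genes). Kcnk18 had 135.2 CPM (131.4 to 139.1) against 35.8 CPM in CAST/Ei (log2 ratio 1.89) and 90.9 CPM (85.6 to 96.4) against 10.4 CPM in C57BL/6 (log2 ratio 3.01), and all 34 CAST/Ei and all 15 C57BL/6 cells of the class held at least 5 of its reads. Kcnn2 was the other, with 13.8 CPM against 5.99 CPM in CAST/Ei and 32.7 CPM against 3.13 CPM in C57BL/6. Kcna2 was lower, with 27.9 CPM against 116.4 CPM in CAST/Ei and 42.6 CPM against 106.7 CPM in C57BL/6. Kcnmb1 differed by strain, with 137.1 CPM (133.3 to 141.1) against 116.8 CPM in CAST/Ei (log2 ratio 0.23) and 1093 CPM (1075 to 1112) against 146.4 CPM in C57BL/6 (log2 ratio 2.89), a difference that was not tested.

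In Sst-high cells 1 member was higher (1.86% of all genes) and 24 lower (13.4% of all genes). The higher one was Kcnh7, with 232 CPM (222 to 242) against 26.8 CPM in CAST/Ei (log2 ratio 3.07) and 138.01 CPM (129.4 to 147.03) against 30.04 CPM in C57BL/6 (log2 ratio 2.16). Kcnj12 was among the lower ones, with 22.9 CPM against 199.9 CPM in CAST/Ei and 18.2 CPM against 148.3 CPM in C57BL/6, and so was Kcna1, with 8.66 CPM against 71.2 CPM in CAST/Ei and 12.97 CPM against 115.8 CPM in C57BL/6.

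In Tac1-high cells 8 members were higher (5.50% of all genes) and 15 lower (4.79% of all genes). Kcnk3 had 432 CPM (424 to 441) against 11.7 CPM in CAST/Ei (log2 ratio 5.09) and 197 CPM (191 to 204) against 16.3 CPM in C57BL/6 (log2 ratio 3.52). Kcnmb2 had 112.6 CPM (108.2 to 117.1) against 3.196 CPM in CAST/Ei (log2 ratio 4.76) and 96.5 CPM (91.9 to 101.2) against 1.203 CPM in C57BL/6 (log2 ratio 5.47). Kcnk2 had 26.5 CPM against 1.18 CPM in CAST/Ei and 31.1 CPM against 0.756 CPM in C57BL/6, Kcnc4 48.05 CPM against 18.8 CPM in CAST/Ei and 97.8 CPM against 20.5 CPM in C57BL/6, and Kcnip1 25.9 CPM against 11.02 CPM in CAST/Ei and 59.5 CPM against 11.34 CPM in C57BL/6, and Kcnt2, Kcnq5 and Kcnmb4 were the other 3. Kcnc4 was not highest in this class in either strain. It had 57.99 CPM in Mrgprd-high CAST/Ei cells and 107.6 CPM in Nefh-high C57BL/6 cells. Kcnip4, Kcnip2 and Dpp10 were among the lower ones. Kcnip4 had 67.9 CPM against 582 CPM in CAST/Ei (log2 ratio -3.08) and 56.2 CPM against 582 CPM in C57BL/6 (log2 ratio -3.35), Kcnip2 59.5 CPM against 344 CPM in CAST/Ei and 2.56 CPM against 302 CPM in C57BL/6, and Dpp10 261 CPM against 977 CPM in CAST/Ei and 19.1 CPM against 249.6 CPM in C57BL/6. The mean log2(CPM + 1) of the glia list was 4.02 in Tac1-high and 2.93 in the other CAST/Ei cells, and 4.12 in Tac1-high and 2.97 in the other C57BL/6 cells, and its part was not tested.

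In Nefh-high cells 0 members were higher in both strains (1.4% of all genes) and 7 lower (6.59% of all genes), but the 2 classes carried markers of different subtypes, so these counts describe no shared cell type. In the 13 C57BL/6 cells Kcna1 had 607 CPM (589.7 to 625) against 50.3 CPM in C57BL/6 (log2 ratio 3.57), Kcna2 286 CPM (274 to 298) against 75.3 CPM in C57BL/6 (log2 ratio 1.91), and Kcnk1 150.97 CPM (142.4 to 159.9) against 11.7 CPM in C57BL/6 (log2 ratio 3.58). In the 3 CAST/Ei cells these genes were lower than in the other classes, at 18.3, 41.5 and 0.482 CPM. Kcnip4 had 153.8 CPM against 501 CPM in CAST/Ei and 199.7 CPM against 489 CPM in C57BL/6.

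Genes that work beside potassium channels were read from 2 further lists. Of 26 channel partners and regulators in the table, 6 were higher and 12 lower in cultured than in naive CAST/Ei cells, and 6 higher and 10 lower in C57BL/6. The 6 higher were 23.1% of the list, near the share of all genes (24.1% of all genes in CAST/Ei, 22.8% of all genes in C57BL/6), and the lower ones were 46.2% of it in CAST/Ei (20.2% of all genes) and 38.5% in C57BL/6 (23.6% of all genes). Dpp6, the relative of Dpp10 in Kv4 complexes, had 32.8 CPM in cultured and 399.6 CPM in naive CAST/Ei cells (log2 ratio -3.57), and 56.6 CPM in cultured and 264 CPM in naive C57BL/6 cells (log2 ratio -2.20). Amigo3, of a family of Kv2 partners, had 6.42 CPM in cultured and 86.9 CPM in naive CAST/Ei cells (log2 ratio -3.57), and 1.11 CPM in cultured and 61.2 CPM in naive C57BL/6 cells (log2 ratio -4.88), and Adam22, a partner of Kv1 complexes, 86.8 CPM in cultured and 468 CPM in naive CAST/Ei cells (log2 ratio -2.42), and 55.9 CPM in cultured and 451 CPM in naive C57BL/6 cells (log2 ratio -2.99). Lgi4, a Schwann cell ligand of Adam22, was higher, with 42.01 CPM in cultured and 2.90 CPM in naive CAST/Ei cells (log2 ratio 3.46), and 149.3 CPM in cultured and 2.11 CPM in naive C57BL/6 cells (log2 ratio 5.59). Rest, the gene of the repressor that binds RE1, had 18.4 CPM in cultured and 2.07 CPM in naive CAST/Ei cells (log2 ratio 2.66), and 11.16 CPM in cultured and 0.687 CPM in naive C57BL/6 cells (log2 ratio 2.85).

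Of 12 potassium transport genes, 1 was higher and 8 lower in cultured CAST/Ei cells, and 1 higher and 5 lower in C57BL/6. The lower ones were 66.7% of the list in CAST/Ei (20.2% of all genes) and 41.7% in C57BL/6 (23.6% of all genes), and the 1 higher was 8.33% of it in each strain (24.1% of all genes in CAST/Ei, 22.8% of all genes in C57BL/6). Fxyd2, a regulator of the sodium pump, had 484 CPM in cultured and 3359.9 CPM in naive CAST/Ei cells (log2 ratio -2.79), and 637 CPM in cultured and 3447 CPM in naive C57BL/6 cells (log2 ratio -2.43), and the pump subunit gene Atp1b1 110.5 CPM in cultured and 256 CPM in naive CAST/Ei cells (log2 ratio -1.20), and 81.97 CPM in cultured and 309.7 CPM in naive C57BL/6 cells (log2 ratio -1.90).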

How the data were processed

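The deposited table holds whole-number read counts per gene and cell, made by the authors with Bowtie2 and SAMtools on mm10, per the submitters' processing notes, with no versions. Which program and annotation produced the counts is not given in the sources used here. Per the labels' protocols, dissociated cells were filtered, cleaned on Percoll and captured on Fluidigm C1 chips, and up to 192 cells of all conditions were sequenced together. The labels name no molecular identifiers, so reads are not taken as independent molecules.

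The 11251 genes and 516 cells were used as deposited, with no doublet caller and 0 cells removed. Counts were scaled to CPM; cells were clustered on log2(CPM + 1) without the members (scikit-learn 1.9.0, leidenalg 0.10.2, Python 3.11.15, pandas 2.3.3, SciPy 1.17.1). Clusters were named from marker lists. By the naming rule as written cluster 9, 31 naive C57BL/6 cells high in Th, stayed unnamed because the vascular gene Rgs5 is among its top 10 genes. Its neuron list mean exceeded every other list by at least 4 log2 units, so it was counted as neuronal, a departure made after seeing the data. The rule as written is given as an alternative. That gap was asked of unnamed clusters only, and the cultured clusters 2 and 3, named by the rule as written, did not reach it.

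Reads were summed per group or class. A pseudocount of 1 CPM and a threshold of 2-fold were used. Groups of cells with no named animal allow no test. Members of at least 20 CPM and at least 2-fold apart were described in full, and the rest more briefly. The members and gene lists were chosen with earlier results of these data known. Values of some genes are not reported here, and counts over the members include them.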

Additional observations from a re-analysis of the deposited data

Results flagged for a closer look

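The culture response of Kcnk1 ran in opposite directions in the strains. The response in CAST/Ei minus that in C57BL/6 was 5.06 on the log2 scale, from 1.58 in CAST/Ei and -3.48 in C57BL/6. With 1 sample per group the difference was not tested. In naive C57BL/6 cells Kcnk1 was highest in the Nefh-high class (150.97 CPM), which held 13 cells against 3 in CAST/Ei. Its cultured level was under 2-fold above the highest naive class used in CAST/Ei (Th-high, 19.5 CPM). In C57BL/6 it was under 2-fold below the lowest naive class (Tac1-high, 2.27 CPM). The part of subtype makeup in the difference was not tested. Reads of Kcnk1 were found in 29 of 78 cultured CAST/Ei and 5 of 37 cultured C57BL/6 neuronal cells, and 33.1% of the cultured CAST/Ei reads came from 1 cell.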

How the results depend on the processing

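Lower calls after culture moved least: 20 of 27 in CAST/Ei and 22 of 34 in C57BL/6 were at least 2-fold lower under every alternative computed, against 3 of 7 and 2 of 5 higher calls. Of the naive strain calls 3 of 6 higher and 1 of 5 lower held in this way, and of the cultured strain calls 5 of 14 higher and 0 of 6 lower. The share of all genes under each alternative is not given in this section, so no count here is read as particular to the members. A pseudocount of 10 CPM left 4 higher calls after culture in CAST/Ei, 3 higher and 1 lower between naive strains, 6 higher and 3 lower between cultured strains, and 1, 1 and 4 higher in Mrgprd-, Mrgpra3- and Tac1-high cells. A minimum mean of 5 CPM left 8 higher between cultured strains. In C57BL/6 3 members were higher after culture when cells were classed by their own marker means, without the 25% of cells highest in glial genes, or with all cells. The median log2 ratio of all genes was -0.21, -0.22 and 0.12 in the same order. Between naive strains 8 were lower with cells classed by their own marker means and 8 with all cells. Kcnj13 in C57BL/6 turned to -0.90 by own marker means and -1.19 with all cells, and Kcna1 in C57BL/6 to -0.29 without the most glial cells. With markers at 1 time the mean, 7 members were higher in Th-high cells and Kcnip1 turned to -0.27 in CAST/Ei Tac1-high cells. With cells high in several markers kept, Dpp10 turned to 0.35 in CAST/Ei Nefh-high cells. The mean of each cell's own CPM gave 1 member higher in Nefh-high cells.

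Of the alternatives chosen after seeing the data, the naming rule as written gave 10 members higher between naive strains. Leaving out the cell with most reads of each gene gave 2 higher after culture in C57BL/6, 4 higher in CAST/Ei, 3 lower between cultured strains, and a turn of Kcnh7 to -0.12 between cultured strains. The cause was not tested in any of these. Median-of-ratios scaling moved the median of all genes to -0.0282 between cultured strains (from 0.17) and to -0.0043 for culture in CAST/Ei (from 0.11). With markers at 4 times the mean the CAST/Ei Nefh-high class had 1 cell. No paired analysis was possible because the numbers in the labels only name cells and no result comes from a test.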

Other observations

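The unnamed cluster 7, 34 naive cells to which no marker list gave a name, entered no comparison of neuronal cells. In it Kcnj10 had 289.9 CPM in CAST/Ei and 155.8 CPM in C57BL/6, and Kcna1 377 and 259 CPM.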
